A study of Drosophila melanogaster with 4 samples.

Results

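The regions described here lie on the euchromatic part of 3R, the right arm of chromosome 3 of Drosophila melanogaster, and were marked as enriched for Su(var)3-7 in heads. They are the enriched regions of the combined list that start after the first 2 Mb of the 3R sequence, which is its centromere end, and end at or before base 26905053, which leaves out the last 1 Mb at the telomere end. The stretch runs from 3R:2000001 to 3R:26905053 (24.9 Mb, FlyBase release 5) and holds 1412 of the 9474 enriched regions of the combined list (14.9%), out of 1650 on the whole 3R sequence. The same stretch holds 1088 regions in ChIP replicate 1 and 972 in ChIP replicate 2. The choice used position alone; length, spacing, score and presence in the replicates had no part in it. Of the enriched regions of the combined list, 1 crosses a border of the stretch and was left out. The combined list also marks 2 places in the stretch as depleted, and these are not counted. At 1 of them, 3R:25314150 to 3R:25316014, both replicate lists have an enriched region, with scores of 0.0256 in replicate 1 and 0.162 in replicate 2.

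The chromatin came from head nuclei of mixed adult flies of the wild-type strain Oregon-R, raised in population cages. The 2 ChIP libraries were made with the antibody Q3448 against Su(var)3-7, and the 2 input libraries had no antibody step; each ChIP library was called against the input of its own number. All libraries share the strain, the genotype and the tissue, and no mutant or treated flies were used, so the design compares ChIP with input and replicate with replicate. Heads were pooled, so the cell types of the head cannot be told apart, and a region found in few cells cannot be told from a weak region found in many. Whether separate collections of flies lie behind the replicates is not in the labels. The files give no counts, so the depth is unknown, and an empty place may hold too few reads for a call.

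Su(var)3-7 carries zinc fingers and belongs to heterochromatin. It was found through mutations that change position-effect variegation, the patchy silencing of a gene placed near heterochromatin. It binds HP1, the protein that recognises methylated lysine 9 of histone H3, and its dose affects how far silencing spreads. In polytene chromosomes of larvae it marks the chromocentre, chromosome 4 and a smaller number of places on the euchromatic arms. The stretch described here lies in that gene-rich euchromatin.

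Su(var)3-7 regions on euchromatic 3R were short and took up a small part of the arm. They covered 2.69 Mb of the stretch in replicate 1 and 2.36 Mb in replicate 2, and 3.50 Mb in the combined list. As a share of the stretch this was 10.8% in replicate 1 and 9.48% in replicate 2, with a mean of 10.1% ± 0.921 (SD, n = 2), and 14.1% in the combined list. The 3 lists together left 85.5% of the stretch with no region. Per Mb there were 43.7 regions in replicate 1, 39.0 in replicate 2 and 56.7 in the combined list, or 1 region per 22.9, 25.6 and 17.6 kb.

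Region lengths lay mostly within a narrow range around 2 kb. The median was 2166.5 bp in replicate 1, 2140 bp in replicate 2 and 2115 bp in the combined list. The middle 50% of lengths lay between 1916 and 2680.5 bp in replicate 1 and between 1873 and 2589 bp in replicate 2, and more widely, between 1694 and 2772 bp, in the combined list. By length class, 586 of the 1412 combined regions were shorter than 2 kb, 532 measured 2 to 3 kb, 218 measured 3 to 5 kb and 69 measured 5 to 10 kb. At 10 kb or more there were 7 regions in the combined list (2.67% of its covered length), 3 in replicate 1 (1.36%) and 2 in replicate 2 (1.16%). Among all combined regions of the series 2.82% were that long, against 0.496% of those on euchromatic 3R. On stretches of other arms cut in the same way it was 0.456% on 3L, 1.15% on 2L and 1.65% on X. No test of these differences was run. Longer regions tended to have higher scores, with a rank correlation of 0.67 between score and length across the combined regions (Spearman's rho, n = 1412 regions that share their libraries), 0.72 across those of replicate 1 and 0.72 across those of replicate 2. The score is the authors' own value for each region; no source used here gives its scale, and it is used to rank or describe regions.

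**Figure D1:**
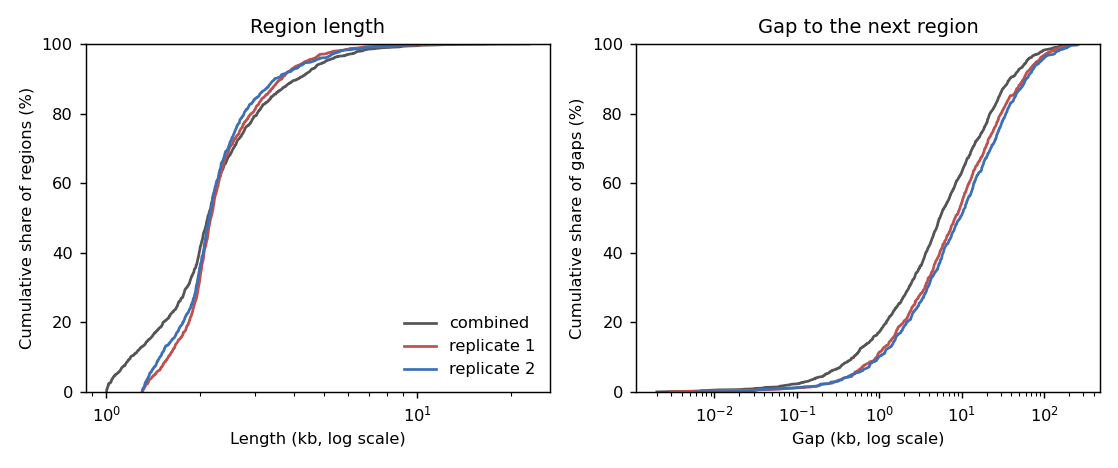
The left panel plots the cumulative share of regions (%) against region length in kb, and the right panel the cumulative share of gaps (%) against the gap to the next region in kb, both on log axes, for the combined list, replicate 1 and replicate 2. The length curves meet near their medians of 2115 to 2166.5 bp and part below, where the combined list reaches down to 1001 bp; the gap curve of the combined list lies left of those of the replicates.

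Spacing along the arm was much more uneven than length. The gap from the end of a region to the start of the next had a median of 5447 bp in the combined list, 8319 bp in replicate 1 and 9618 bp in replicate 2. The middle 50% of gaps in the combined list ran from 1693 to 17963 bp, and the whole range from 2 bp to 244.3 kb. The SD of the gaps was 1.69 times their mean in the combined list, 1.54 times in replicate 1 and 1.55 times in replicate 2. Neighbours were often close: 244 of the 1411 gaps in the combined list (17.3%) were shorter than 1 kb and 669 (47.4%) were at most 5 kb. At most 5 kb were 38.1% of the gaps in replicate 1 and 35.2% in replicate 2. At the other end, 102 gaps of at least 50 kb took up 9.05 Mb, or 36.4% of the stretch, in the combined list, and gaps of that size took up 46.8% in replicate 1 and 50.0% in replicate 2.

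Cut into 249 whole windows of 100 kb, the stretch held between 0 and 15 combined regions per window, with a mean of 5.67. The variance of that number over windows was 2.31 times its mean in the combined list, 2.05 times in replicate 1 and 2.05 times in replicate 2. The covered share of a window had a median of 9.28% in replicate 1 and 8.01% in replicate 2, and a highest value of 55.0% and 47.2%. The densest 10% of windows (25 of 249, ranked in each list by that list) held 25.9% of the covered length in replicate 1, 26.4% in replicate 2 and 24.7% in the combined list. Neighbouring windows had only loosely related values. The covered share of a window and that of the next had a rank correlation of 0.13 in replicate 1 and 0.16 in replicate 2 (Spearman's rho over neighbouring windows of 1 library), and at a distance of 500 kb it was -0.05 and -0.07.

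In steps of 1 Mb the covered share, averaged over the replicates, ran from 5.79% ± 1.15 between 3R:15000001 and 3R:16000000 to 19.6% ± 2.08 between 3R:5000001 and 3R:6000000 (SD, n = 2 each). The median of the 25 steps was 8.98%. The densest step had 21.1% covered in replicate 1 and 18.1% in replicate 2, and 88 combined regions, against 39 in the emptiest. Next came 3R:12000001 to 3R:13000000 with 14.5% ± 1.24, 3R:7000001 to 3R:8000000 with 13.7% ± 1.05, and 3R:4000001 to 3R:5000000 with 13.6% ± 0.492. These 3 values differed by less than the larger SD among them. Taken as a whole, the 4 Mb from 3R:4000001 to 3R:8000000, chosen after the profile was seen, had 13.8% ± 0.927 covered and 66.3 combined regions per Mb, against 9.34% ± 1.09 and 54.7 per Mb from 3R:8000001 to the end of the stretch. The 2 Mb nearest the centromere end, from 3R:2000001 to 3R:4000000, had 10.4% ± 0.641. Within the 4 Mb the covered share was not even: 3R:6000001 to 3R:7000000 had 8.17% ± 1.07.

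**Figure D2:**
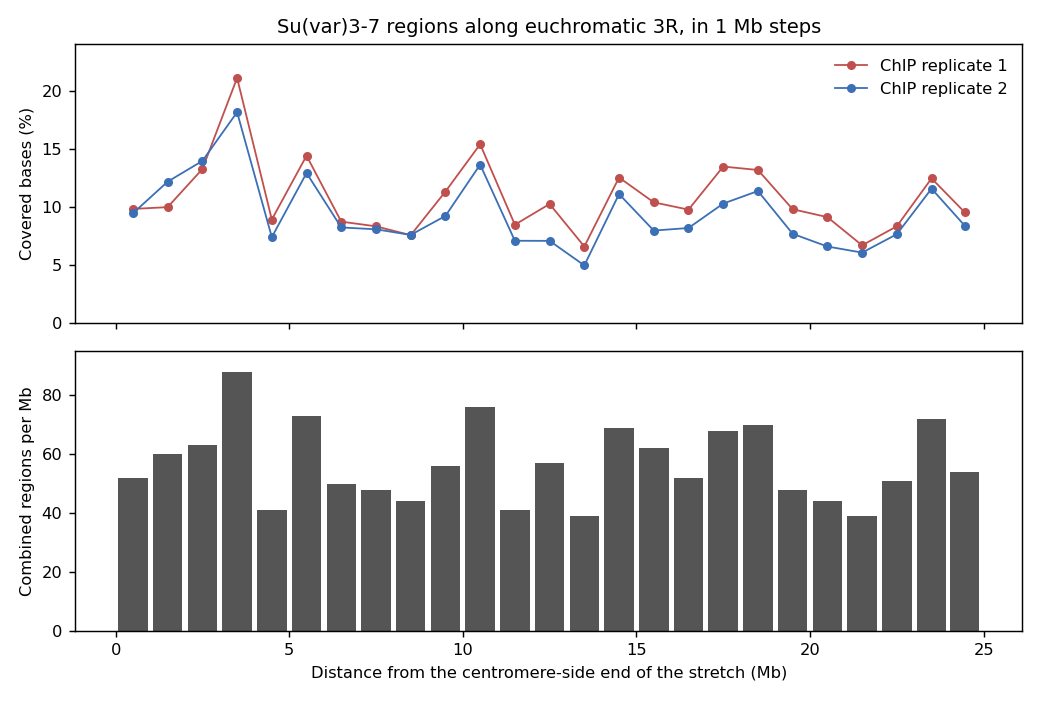
The upper panel plots the covered share (%) of each 1 Mb step along the stretch in ChIP replicate 1 and ChIP replicate 2, and the lower panel the number of combined regions per Mb, against distance from the centromere-side end in Mb. Both replicates peak in the same step (21.1% and 18.1%), and the bars run from 39 to 88 per Mb.

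The densest 100 kb window of the stretch was 3R:12000001 to 3R:12100000, with 55.0% covered in replicate 1 and 47.2% in replicate 2. It stood clear of the next, 3R:4800001 to 3R:4900000, which had 35.6% and 35.3%. The others among the 10 densest were 3R:5300001 to 3R:5400000 with 30.9% ± 1.89, 3R:11100001 to 3R:11200000 with 29.7% ± 1.38, 3R:5900001 to 3R:6000000 with 28.2% ± 7.48, 3R:5500001 to 3R:5600000 with 27.8% ± 2.81 and 3R:7400001 to 3R:7500000 with 27.4% ± 0.643 (means of the replicates, SD, n = 2). The list ended with 3R:7000001 to 3R:7100000 at 27.3% ± 3.56, 3R:5200001 to 3R:5300000 at 27.3% ± 1.73 and 3R:25800001 to 3R:25900000 at 26.3% ± 0.409. Apart from the 2 densest, the values are close together, and several neighbours in this order differ by less than the spread between replicates. Of the 25 densest windows of each replicate, 20 were the same.

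Inside the densest window the 3 lists had most places in common, but not all. It was met by 12 combined regions, 13 regions of replicate 1 and 11 of replicate 2. The combined regions that start at 3R:12015967 and 3R:12037120 overlapped a region of replicate 1 alone, and the one at 3R:12053044 overlapped none in either replicate. In the combined list, 3R:12005291 to 3R:12007459 had a score of 1.15 and 3R:12029973 to 3R:12034902 a score of 2.58. A region of 8843 bp followed at 3R:12043616 with a score of 0.594. Behind it lay the longest region of the stretch, 3R:12059004 to 3R:12081870 (22867 bp, score 0.741). Replicate 1 had this place in 3 pieces of 11499, 8295 and 2127 bp, and replicate 2 in 3 pieces of 2963, 16550 and 2958 bp. After a gap of 3292 bp came the region with the highest score of the stretch, 3R:12085163 to 3R:12087925 (2763 bp, score 3.95). The long region and the high-scoring one are thus neighbours, and the longest had the lower score by far.

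**Figure D3:**
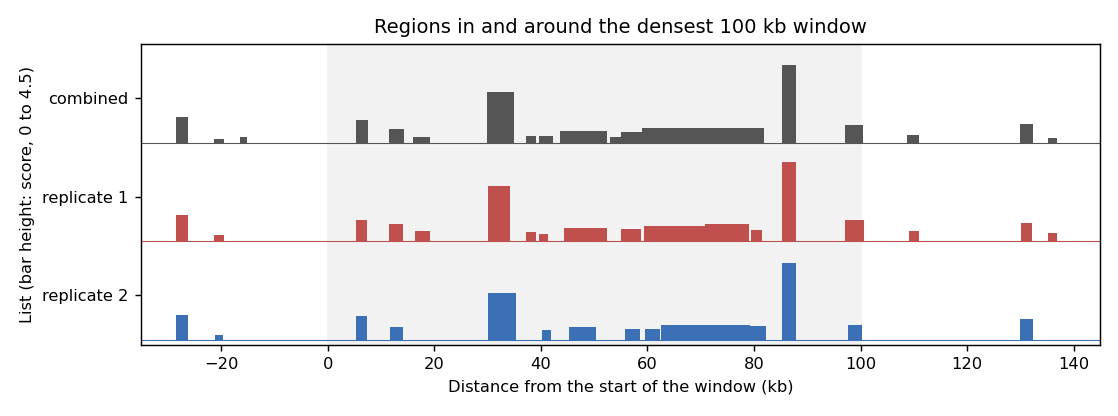
Regions in and around the densest 100 kb window (grey band), plotted against distance from the window's start in kb, in rows for the combined list, replicate 1 and replicate 2; bar width is region length and bar height is the score on a scale from 0 to 4.5. A narrow bar with scores of 3.95, 4.01 and 3.89 in the 3 lists stands beside a wide, low block that the combined list gives as 1 region of 22867 bp and each replicate as 3 pieces.

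Among the combined regions found in both replicates, the 10 with the highest scores were 2288 to 5385 bp long. All 10 were longer than the median of 2115 bp of the combined list, and several lay far from any neighbour. After the one at 3R:12085163 came 3R:7437887 to 3R:7440322, which had 3.54 in the combined list, 3.66 in replicate 1 and 3.42 in replicate 2. Next, 3R:12623230 to 3R:12625706, had 3.30, 3.32 and 3.29, and stood alone, with 140.2 kb free on one side and 56.7 kb on the other. After it, 3R:22013296 to 3R:22015806, had 3.15, 3.24 and 3.10, with free stretches of 49.0 and 62.9 kb. These 3 were 2436, 2477 and 2511 bp long. Then 3R:3632190 to 3R:3637574, measured 5385 bp and had 2.98, 3.37 and 2.87; its neighbours lay 2426 and 530 bp away. Behind it, 3R:10215946 to 3R:10219465, had 2.94 in the combined list but 3.46 and 3.27 in the replicates, which covered 67.2% and 65.1% of its 3520 bp. Scores of 2.75 to 2.63 belonged to 3R:26885030 to 3R:26888404, 3R:13845969 to 3R:13848380, 3R:3171259 to 3R:3173546 and 3R:17918741 to 3R:17921034. In all 10, each replicate had 1 region. Over the 100 highest scores found in both replicates (at least 1.29) the median length was 2524.5 bp, and the median distance to the nearest other region was 4524.5 bp, against 2388 bp over all combined regions of the stretch found in both.

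The 5 longest regions found in both replicates had scores above the median of the stretch, yet far below the highest ones. After the one of 22867 bp came 3R:5243098 to 3R:5257239 (14142 bp, score 0.529), 3R:2905004 to 3R:2917697 (12694 bp, score 1.12), 3R:5915342 to 3R:5927313 (11972 bp, score 0.490) and 3R:9621247 to 3R:9632641 (11395 bp, score 1.07). The median score of the combined regions of the stretch was 0.415, with the middle 50% between 0.311 and 0.696. Replicate regions covered 91.7% and 73.1% of the one at 3R:5243098, and 77.4% and 50.4% of the one at 3R:5915342, in replicates 1 and 2. The one at 3R:9621247 was a single region in each replicate, which covered 85.7% and 84.6% of it. All 7 combined regions of at least 10 kb were found in both replicates, and 4 of them lay between 3R:4000001 and 3R:8000000.

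Short gaps joined regions into runs. Counting as a run at least 5 combined regions in a row with gaps of at most 5 kb, the stretch had 46 runs with 291 regions (20.6% of the 1412) on 1.22 Mb (4.92% of the stretch). The median run had 6 regions over 25.7 kb. The run with the most regions, 12, ran from 3R:7011348 to 3R:7071201 (59.9 kb), with 44.1% of its bases covered in replicate 1 and 35.2% in replicate 2. Of 9 regions each were 3R:5580402 to 3R:5620127, with 40.6% and 43.7% covered, and 3R:16587037 to 3R:16616370, with 20.8% and 20.0%. The last of these had 9 combined regions on 29.3 kb but 3 regions in each replicate. Of 8 regions each were 3R:12029973 to 3R:12087925 in the densest window, with 76.7% and 69.4% covered, and 3R:12802848 to 3R:12829212, with 29.3% and 31.1%. In the replicates, runs so defined numbered 15 and 13.

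Long empty stretches lay between the dense ones. The longest gap of the combined list ran from 3R:23128383 to 3R:23372662 (244.3 kb). It was followed by 3R:18620917 to 3R:18829161 (208.2 kb), 3R:23533818 to 3R:23730684 (196.9 kb), 3R:17960581 to 3R:18152025 (191.4 kb) and 3R:10731074 to 3R:10919039 (188.0 kb). The replicates' own longest gaps were 255.3 kb in replicate 1 and 267.1 kb in replicate 2. Combined gaps of 125.8 and 121.0 kb were parted only by 3R:23999837 to 3R:24001164, a combined region found in neither replicate. The gaps that start at 3R:23128383 and 3R:23533818 held no base of a region in either replicate. Those that start at 3R:18620917 and 3R:17960581 met 3 and 68 bases at the edge of a region of replicate 1, and the one at 3R:10731074 met 1366 bases in replicate 1 and none in replicate 2. Of the 102 gaps of at least 50 kb, 96 held no whole region of either replicate, and 44 held no base of one. Replicate regions covered 0.0847% of the length of the 102 gaps in replicate 1 and 0.062% in replicate 2. As the combined list was made from the same libraries, this is no independent check. With the 3 lists laid over each other, 101 gaps of at least 50 kb remained, on 8.94 Mb or 35.9% of the stretch, of which 25 were 100 kb or longer.

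Of the 249 windows of 100 kb, 12 held no base of a region in the combined list, and these 12 were empty in both replicates too. Replicate 1 had 18 empty windows and replicate 2 had 24, of which 16 were empty in both. The 12 were spread along the arm, the first from 3R:6300001 to 3R:6400000 and the last from 3R:24200001 to 3R:24300000, and none lay next to another. One of them, 3R:12500001 to 3R:12600000, lies in the same 1 Mb step as the densest window.

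Most places were marked in both replicates. In replicate 1, 867 of 1088 regions (79.7%, exact 95% binomial interval 77.2 to 82.0%, which covers counting error only) overlapped a region of replicate 2 by at least 1 bp; over all sequences of the series that share was 83.3%. Of the regions of replicate 2, 861 of 972 (88.6%, 86.4 to 90.5%) overlapped one of replicate 1, against 81.2% over the series. The shared bases came to 2.00 Mb, which was 74.5% of the length covered in replicate 1, 84.7% of that in replicate 2 and 65.7% of the length covered in either. Sharing went with length. Of the regions shorter than 2 kb, 52.3% were shared in replicate 1 and 73.2% in replicate 2; from 2 to 3 kb it was 91.5% and 96.8%, and from 3 kb on 96.6% and 98.7%. Regions without a partner had lower median scores, 0.429 against 0.693 for the shared ones in replicate 1 and 0.464 against 0.605 in replicate 2.

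Where a region of one replicate met exactly 1 of the other, the edges lay close together. There were 792 such pairs. The starts differed by a median of 100 bp, the ends by 105 bp and the midpoints by 99 bp; in 10% of the pairs the midpoints were more than 478 bp apart. In 383 pairs (48.4%) both edges agreed within 200 bp. Replicate 1 had the longer region in 522 pairs and replicate 2 in 267, with a median difference of 79 bp (written -79 bp for replicate 2 minus replicate 1). The scores of the pairs had a rank correlation of 0.82 (Spearman's rho over 792 pairs from 2 libraries), and the score was higher in replicate 2 in 244 pairs.

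The covered share of the 249 windows had a rank correlation of 0.93 between the replicates (Pearson's r was 0.94; both over windows of 2 libraries, as a description). Replicate 1 covered more of the window in 172, replicate 2 in 60, and 17 were equal. In steps of 1 Mb replicate 1 covered more in 22 of 25. The 3 steps in which replicate 2 covered more began at 3R:3000001, 3R:4000001 and 3R:10000001; in the last, 7.58% and 7.60% were covered. The difference between replicates was 5 percentage points or more in 26 windows and had a median size of 1.53 points.

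The window in which the replicates differed most was 3R:3500001 to 3R:3600000, where replicate 1 had no region and replicate 2 covered 11.1%. It belongs to a gap of 132.5 kb in replicate 1, from 3R:3472106 to 3R:3604592, in which replicate 2 had 5 regions and the combined list 6. Among those of replicate 2 was 3R:3522010 to 3R:3528766, of 6757 bp and a score of 0.856, above the upper quartile of 0.819 of its list on the stretch. The combined list has this region at 3R:3521950 to 3R:3528807 with a score of 0.570. The region of replicate 1 just before the gap, which ends at 3R:3472105 (score 1.84), has a partner in replicate 2 with a score of 2.02, whereas the one just after it, which starts at 3R:3604593 (score 0.300), overlaps no region of replicate 2. No other gap of replicate 1 on the stretch held more than 2 regions of replicate 2. In the other direction, the gaps of replicate 2 held up to 4 regions of replicate 1, as from 3R:22193149 to 3R:22360955 (167.8 kb). The window 3R:14000001 to 3R:14100000 had 26.3% covered in replicate 1 and 15.2% in replicate 2, from 11 and 6 regions with their midpoints there.

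**Figure D4:**
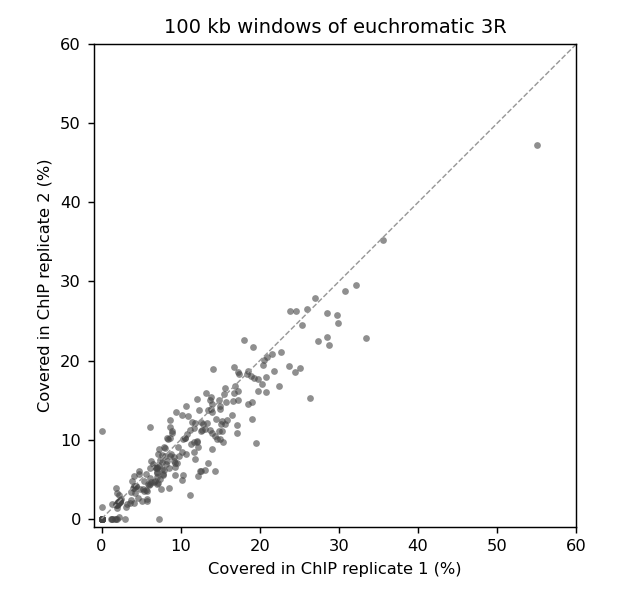
Each point is a 100 kb window of the stretch, with the covered share (%) in ChIP replicate 1 on the x axis and in ChIP replicate 2 on the y axis; the dashed line marks equal shares. Most points lie near and below the line, the densest window is at 55.0% and 47.2%, and the window with no region in replicate 1 and 11.1% in replicate 2 stands on the y axis.

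Set against the replicates, the combined list falls into 4 classes. As it was made from the same libraries, the overlap is no independent check. Of the 1412 combined regions, 829 (58.7%) overlapped a region of both replicates. The exact 95% binomial interval was 56.1 to 61.3%, which covers counting error only. Over the whole combined list the share was 53.2%. A region of replicate 1 alone lay under 204 (14.4%, against 10.9% over the whole list), of replicate 2 alone under 96 (6.80%, against 11.5%) and of neither under 283 (20.0%, against 24.4%). These whole-list shares include the 1412 regions. Those found in both held 2.55 of the 3.50 Mb and had a median length of 2502 bp and a median score of 0.608. Median scores were 0.293 with replicate 1 alone, 0.297 with replicate 2 alone and 0.324 with neither. Of the 829, 760 (91.7%) met exactly 1 region of each replicate and 69 joined several.

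Length and score, which tended to rise together, both separated the regions found in both replicates from most of the others. The combined list was made from the same libraries as the replicate lists, so these shares are no independent check of the regions. The 182 combined regions shorter than 1301 bp, the shortest length in the replicate lists, included none found in both replicates and 157 (86.3%) found in neither. From there up to 2 kb, 87 of 404 (21.5%) were found in both, from 2 to 3 kb 466 of 532 (87.6%), from 3 to 5 kb 201 of 218 (92.2%) and from 5 to 10 kb 68 of 69. With the regions split by score into 4 equal parts, the share found in both was, from the lowest part up, 17.0%, 32.0%, 89.8% and 96.0%. The share found in neither was 33.7%, 37.1%, 5.67% and 3.68%. By distance to the nearest neighbour, the share found in both did not rise steadily. It was 55.1% with a neighbour under 1 kb away, 60.8% at 1 to 5 kb, 59.6% at 5 to 20 kb and 59.8% at 20 kb or more. In steps of 1 Mb the share ran from 47.9 to 69.8%. The longest row of combined regions all found in both was 11 regions long, and the longest with none found in both was 10.

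**Figure D5:**
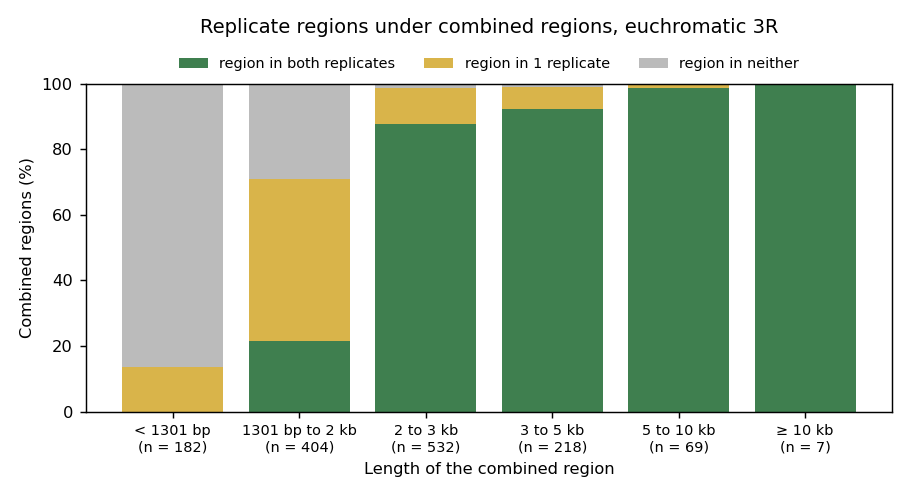
Stacked bars give, for 6 classes of length of the combined regions (x axis, with the number of regions), the share (%) that overlapped a region of both replicates, of 1 replicate or of neither. The share found in both is 0 under 1301 bp, 21.5% from 1301 bp to 2 kb and 87.6% from 2 to 3 kb.

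Compared with the matching stretches of 3L and 2L (the 2 Mb at the centromere end and the 1 Mb at the telomere end left out), euchromatic 3R was covered slightly less in both replicates. The covered share was 10.8% and 9.48% on 3R, against 11.4% and 10.7% on 3L and 11.2% and 10.5% on 2L, in replicates 1 and 2. The difference from 3L was -0.905 ± 0.435 percentage points and that from 2L -0.718 ± 0.393 (3R minus the other arm; SD of the difference, n = 2). On 3R it was lower than on either arm in 2 of 2 replicates. With 2 replicates the smallest p of an exact two-sided permutation of signs is 0.5, so no test was run. On 3R the covered share was 10.1% ± 0.921, against 15.3% ± 0.243 on the stretch of X cut in the same way.

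Median lengths differed little between the 3 autosomal stretches. The mean of the replicates' median lengths was 2153 ± 18.7 bp on 3R, against 2167 ± 17.0 bp on 3L and 2172 ± 34.6 bp on 2L. Taken within each replicate, the 3R median minus the 3L median came to -12.5 and -15 bp, and the 3R median minus the 2L median to -29.5 and -7 bp, for replicates 1 and 2. Median gaps were 8969 ± 919 bp on 3R, against 8420 ± 50.6 bp on 3L and 6991 ± 561 bp on 2L. Within replicates 1 and 2, the 3R median gap minus that of 3L was -65 and 1162.5 bp, so the direction differed. Against 2L the difference was 1724.5 and 2230.5 bp. In the combined list the median gap was 5447 bp on 3R, 5657 bp on 3L and 4809 bp on 2L. Regions per Mb were 41.4 ± 3.29 on 3R, against 44.4 ± 1.87 on 3L and 41.6 ± 3.11 on 2L. Within replicates 1 and 2, 3R minus 3L was -2.08 and -4.09 regions per Mb, and 3R minus 2L was -0.139 and -0.399. The SD of the gaps was 1.55 ± 0.00679 times their mean on 3R, against 1.59 ± 0.0669 times on 3L and 1.80 ± 0.0664 times on 2L. Windows of 100 kb with no region made up 8.43% ± 1.70 on 3R, 6.74% ± 1.64 on 3L and 12.8% ± 1.06 on 2L. Combined regions found in both replicates made up 58.7% on 3R, 58.5% on 3L and 58.6% on 2L. Replicate 1 covered 1.14 times the length of replicate 2 on 3R, against 1.06 times on 3L, 1.07 times on 2L and 0.978 times on X.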

How the data were processed

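The files list enriched regions, with 1 list per ChIP replicate and 1 made from both. Each region has a score that the authors deposited, on a scale that no source used here names. The genome is FlyBase release 5, per the file headers, and Bowtie 0.12.7 is named in the submitters' processing notes. The region caller, its threshold, the handling of repeated sequence and the making of the combined list are not given in these sources. They can change lengths, gaps and what is called at all.

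Regions were used as deposited, with Python 3.11.15, numpy 2.4.6, pandas 2.3.3 and scipy 1.17.1. A replicate region counted as overlapping with at least 1 bp. Interval steps were tested on simulated data. The members, windows, run rule and arms were chosen with earlier results of these data known. Named regions follow a rule: the 10 highest scores and the 5 longest found in both replicates, the 10 densest windows, the 5 longest gaps and the 5 runs with most regions; other places named, among them windows and gaps in which the replicates differ, were chosen after their values were seen. The inputs were not analysed as samples. Genes were not assigned, because the gene table given is of release 6.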

Additional observations from a re-analysis of the deposited data

How the results depend on the processing

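No paired analysis was possible because no regions or counts of the inputs are used here, so ChIP and input of the same number could not be set against each other; arms were compared within each replicate. Of 64 values under other settings, 37 stayed within a fixed limit and 27 moved past it. A change of direction was looked for only in the differences between arms, and 0 of these changed sign. The 37 include the values with a replicate left out, which cannot pass their limit. Counted as regions per Mb, another unit to which the limit does not apply, the differences were -3.09 from 3L and -0.269 from 2L, with the same sign. The limit was the SD between replicates for most values, 1.5 times for counts, 0.05 for the rank correlation and the 95% interval for the share found in both replicates. The cause of each move was not tested, except where the setting itself makes it.

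Each list was restricted to regions at or above its median score over the whole series, 0.481 in the combined list. On the stretch this left 598 of the 1412 combined regions, a smaller set by construction. Their median length was 2711.5 bp and their median gap 21369 bp, with an SD of gaps of 1.32 times the mean. There were 37 empty windows, 30.2% of covered length in the densest 10% of windows and 0 runs. The replicates gave 5.14% covered on average, a difference from 3L of -0.389 points and a window correlation of 0.83. Leaving out 3 Mb at the centromere end gave a difference from 2L of -0.258 points. Leaving out 1 Mb gave one from 3L of -1.67 points, an SD of gaps of 1.73 times the mean and 25.4% in the densest windows. Merging neighbours under 1 kb apart gave a median length of 2259 bp, a median gap of 8035 bp, an SD of 1.49 times the mean and 16 runs. Keeping regions of at least 1301 bp gave a median length of 2207 bp, a median gap of 6471 bp and 67.4% found in both replicates. Windows of 50 kb gave 75 empty windows and 28.3% in the densest, and windows of 200 kb gave 0 and 21.04%. Run gaps of at most 2 kb gave 10 runs and of at most 10 kb 83.

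Leaving out a replicate gave 9.48 to 10.8% covered, -1.21 to -0.597 points from 3L and -0.996 to -0.44 points from 2L; with 2 replicates such values cannot pass their limit. The files give no depth.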

Other observations

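A few combined regions had high scores without a region in either replicate. Of the 283 combined regions of the stretch found in neither replicate, 10% had a score above 0.430, yet 10 reached a score of 1 or more, with lengths from 1001 to 2173 bp and 6 of them shorter than 1301 bp. Of the 283, 69 (24.4%) lay within 1 kb of a replicate region. For the 10, the distance to the nearest replicate region ran from 74 to 125616 bases. The highest of the 10, 3R:15275349 to 3R:15276349, was 1001 bp long and had a score of 2.89, the seventh highest of the 1412, with the nearest replicate region 39475 bases away. The second, 3R:13751609 to 3R:13752614, had a score of 2.17 at rank 21, and the nearest replicate region lay 4983 bases away. At a score of 1 or more, 165 combined regions of the stretch were found in both replicates, 10 in neither and none in 1 replicate alone. Over the whole combined list 211 of 1288 such regions (16.4%) were found in neither, against 5.71% on euchromatic 3R, and that difference was not tested. These regions were chosen after their values were seen.

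The lowest scores of the stretch were close to 0: 3R:13841142 to 3R:13842699 had 0.00097 and 3R:17039864 to 3R:17041503 had 0.0019, and both overlapped a region of replicate 1 alone.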
